A study of Mus musculus with 32 samples.

Results

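Gastrocnemius medialis muscle of mice that lacked both Acvr1b and Tgfbr1 in their myofibres was compared with the same muscle of mice that lacked Acvr1b alone. By label the 2 groups differ in Tgfbr1 and share the loss of Acvr1b. The libraries were chosen by their genotype labels, 4 double KO against 4 Acvr1b KO, which is 8 of the 32 libraries of the series. Each library was made from the polyA RNA of the whole left muscle of a separate mouse. Both knockouts were induced by tamoxifen at 6 weeks of age, and the muscles were taken 3 months later. The promoter that drives the recombinase and the deleted exons are not given in the sources used here. The other libraries are from control and Tgfbr1 KO gastrocnemius, 4 each, and from the soleus of all 16 mice, 4 in each genotype. They entered the estimate of the spread or serve below for comparison.

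Acvr1b encodes ALK4, the type I receptor through which activins and myostatin signal, and Tgfbr1 encodes ALK5, the type I receptor for TGF-beta that also serves myostatin and GDF11. Both are kinases that phosphorylate SMAD2 and SMAD3, and signals through them restrain the growth of skeletal muscle fibres. Gastrocnemius is a muscle mostly of fast, glycolytic fibres, whereas the soleus holds many slow, oxidative ones.

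Total counts per library ran from 33747656 to 39018079 in the Acvr1b KO group and from 28983826 to 40724953 in the double KO group. Levels are given as CPM, the counts of a gene scaled to a common library total, after TMM scaling, which sets the libraries to a common composition, and are compared within a gene only. Differences are log2 fold changes, double KO minus Acvr1b KO, with their standard error (SE), and a gene was called at a Benjamini-Hochberg adjusted p under 0.05 in edgeR's quasi-likelihood test. "Rose" and "fell" are used of called genes only. Library double KO 1 stood apart from its group, with correlations of log2 CPM across genes of 0.9844 to 0.9878 with the other double KO libraries, which correlated at 0.9954 to 0.9973 among themselves. Acvr1b KO 1 held the most mRNA of several adipocyte genes. The animal numbers of the 4 double KO mice all lie above those of the other 12 mice, so that genotype and cohort cannot be told apart.

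The targeted genes were examined first. Acvr1b (chromosome 15, 101174067 to 101213684, GRCm38) stood at 97.6 ± 8.05 CPM in control libraries (SD, n = 4), at 25.3, 24.6, 22.6 and 21.7 CPM in Acvr1b KO 1 to 4 and at 22.01, 15.7, 12.9 and 14.3 CPM in double KO 1 to 4. All 8 knockout libraries lay far below the control libraries. The double KO libraries were lower than the Acvr1b KO libraries by -0.54 ± 0.15 (adjusted p = 0.0186), with the 2 groups overlapping, and the call was lost without Acvr1b KO 1 (0.051), double KO 3 (0.0683) or double KO 4 (0.0599). Tgfbr1 (chromosome 4, 47353222 to 47414931) stood at 29.7, 23.1, 22.2 and 24.003 CPM in Acvr1b KO and at 53.1, 45.1, 43.6 and 35.2 CPM in double KO. Its mRNA was thus higher, not lower, in all 4 libraries labelled double KO (0.84 ± 0.16, adjusted p = 0.00174), and Tgfbr1 KO libraries, at 27.1 ± 3.26 CPM (SD, n = 4), were close to control at 26.2 ± 6.56 CPM. Counts summed over all exons do not show the loss of part of a gene, so the label was not checked by this gene. Libraries are named by their labels throughout.

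Of 17536 genes tested, 2852 were called (16.3%), 1614 higher in double KO (9.20%) and 1238 lower (7.06%). Each count of list members below is to be read beside these 2 shares. Changes beyond 1 log2 unit were found for 491 of the former and 236 of the latter. The median difference over all genes tested was 0.003. The libraries of the 2 groups did not overlap for 26.1% of genes. With control in place of double KO, Acvr1b KO differed in 5 genes (0.0285%, with 775 at an unadjusted p under 0.05), so few single genes were called for loss of Acvr1b alone. Unless stated otherwise, genes that the text below gives as risen or fallen in gastrocnemius kept their calls without any 1 of the 8 libraries. They also kept them under every other setting that tested them. This does not extend to genes given only for a library that stood apart. Settings that drop genes sharing reads or near the targeted loci could not test those genes. Examples were favoured for keeping their calls, and 64 of the 183 named genes called lost the call under at least 1 alternative. In gastrocnemius a p-value sets a difference against the spread between mice of a genotype, estimated over all 16 libraries, 4 a genotype. Genes with fractional counts share reads with similar copies, so their values are less certain. In at least 9 of the 16 gastrocnemius libraries this was so for the myosin heavy chains, Actc1, Tnfsf10, Slc2a3, Gadl1, Chrna1, Etv5, Atp2a2, Actn3, Ryr1, Inhba, Scd1, Plin4, Lpl, Pfkfb3, Ppargc1a, Ddit4l, Pik3cb, Nos1, Sntb1, Amd1, Amd2, Sms, Bgn, Pecam1 and Ak4.

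The genes with the largest changes were taken from called genes with a mean of at least 5 CPM in one group and no overlap between the libraries, so that non-overlap is a condition of their choice. Sln encodes sarcolipin, a small inhibitor of the sarcoplasmic reticulum calcium pump. It stood at 0.817, 0.972, 0.959 and 0.620 CPM in Acvr1b KO and at 7.64, 25.7, 21.01 and 24.7 CPM in double KO. Double KO 1 was the lowest of the double KO libraries, and the difference was 4.55 ± 0.39 (adjusted p = 1.05e-06). Shisal1 stood at 0.320 to 0.429 CPM against 6.71 to 9.67 CPM (4.35 ± 0.22, adjusted p = 5.28e-09). The long noncoding RNA Srrm4os stood at 1.43 to 2.86 CPM against 21.5 to 35.2 CPM (3.87 ± 0.24, adjusted p = 3e-08).

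Kcnn3, which encodes the SK3 potassium channel that returns in denervated muscle, stood at 0.671 to 1.34 CPM in Acvr1b KO and at 18.2, 7.26, 6.22 and 5.598 CPM in double KO (3.23 ± 0.35, adjusted p = 1.13e-05). Without double KO 1 and Acvr1b KO 1 together the difference was 2.54. Actc1, the actin of heart and developing muscle, stood at 121, 91.04, 156 and 173 CPM against 627, 1620, 1242 and 1201 CPM (3.12 ± 0.36, adjusted p = 2.24e-05). Mybph, a myosin-binding protein, stood at 40.3 to 71.3 CPM against 248 to 430 CPM (2.74 ± 0.38, adjusted p = 0.000121). In both sarcomere genes double KO 1 was the lowest of the double KO libraries.

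Further large rises were those of Fam174b (3.67 ± 0.49), of the glutathione transferase Gstt3 (3.03 ± 0.24), of the katanin-like Katnal2 (2.96 ± 0.20), of the ubiquitin hydrolase Uchl1 (2.88 ± 0.36) and of the death receptor ligand Tnfsf10 (2.80 ± 0.39). Katnal2 was among the steadiest, at 0.885 to 1.72 CPM against 8.57 to 9.61 CPM. Uchl1 stood at 2.71 to 3.09 CPM against 44.5, 18.6, 13.5 and 10.01 CPM, and its difference was 2.26 without double KO 1. Plekhh1 rose by 2.70 ± 0.54, and by 1.64 without double KO 1.

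**Figure D1:**
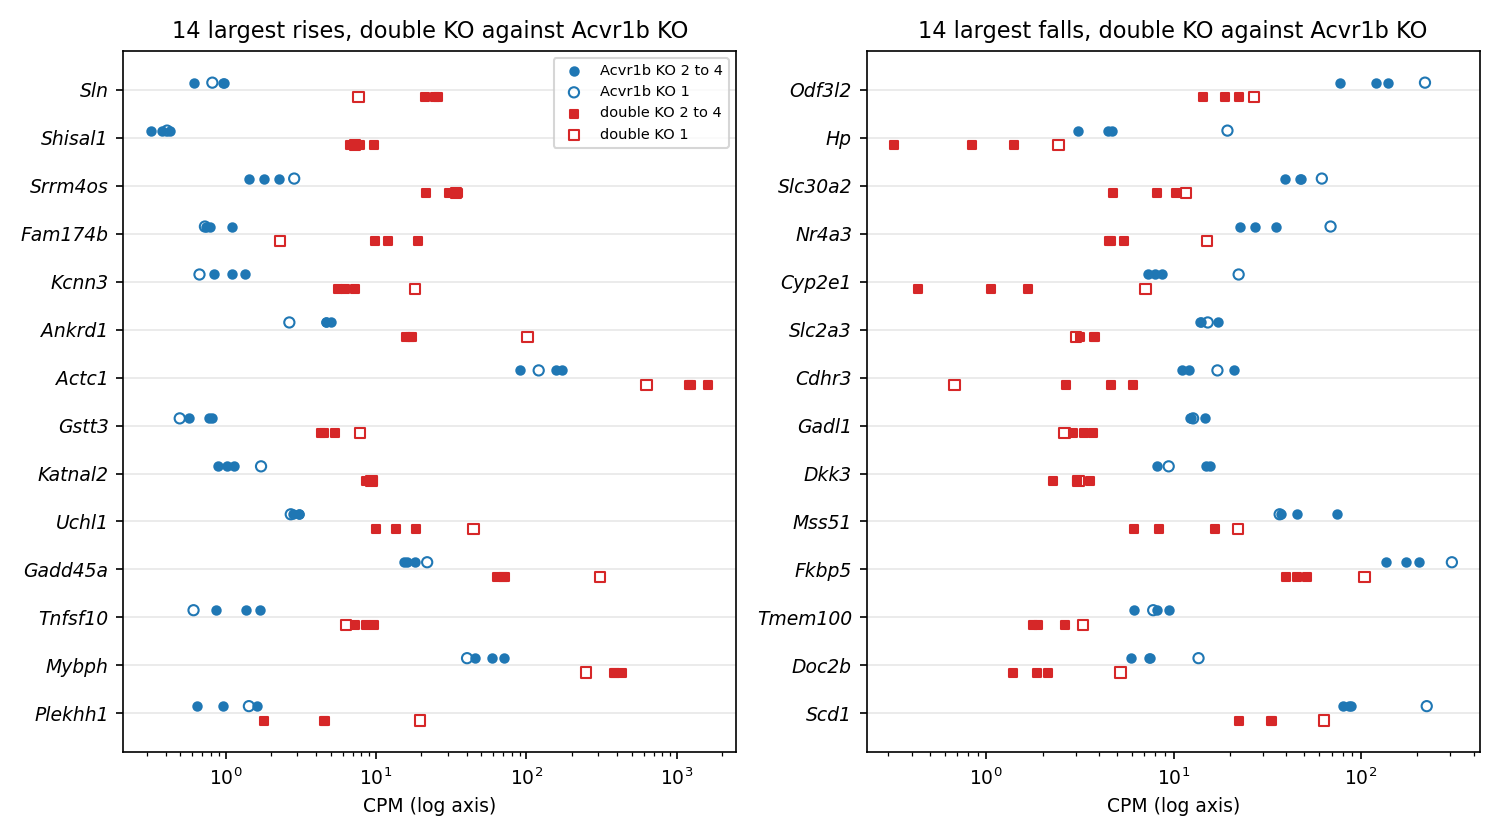
CPM on a log axis in each gastrocnemius library for the 14 genes with the largest rises (left) and the 14 with the largest falls (right) among called genes whose groups did not overlap and whose higher mean reached 5 CPM; circles are Acvr1b KO, squares double KO, and open symbols replicate 1 of each group. Sln rises from below 1 CPM to between 7.64 and 25.7 CPM, and double KO 1 lies far to the right of its group for Ankrd1 and Gadd45a.

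Among the large falls chosen in the same way, Odf3l2 stood at 220, 121, 139 and 77.8 CPM in Acvr1b KO and at 26.9, 14.3, 18.7 and 22.3 CPM in double KO (-2.76 ± 0.33, adjusted p = 3.11e-05). Slc30a2, a zinc transporter, stood at 39.2 to 61.9 CPM against 4.78 to 11.7 CPM (-2.50 ± 0.22, adjusted p = 1.8e-06). Slc2a3, which encodes the glucose transporter GLUT3, stood at 13.8 to 17.2 CPM against 3.02 to 3.83 CPM (-2.12 ± 0.16, adjusted p = 1.96e-07). Gadl1, a decarboxylase that makes beta-alanine for carnosine, stood at 12.2 to 14.8 CPM against 2.62 to 3.71 CPM (-2.04 ± 0.12, adjusted p = 1.21e-08). The spread within each group was small for Slc2a3 and Gadl1, and wide in Acvr1b KO for Odf3l2.

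Cdhr3 (-2.10 ± 0.40), the Wnt modulator Dkk3 (-2.0003 ± 0.27), the mitochondrial protein Mss51 (-1.88 ± 0.39), Tmem100 (-1.73 ± 0.23) and the calcium sensor Doc2b (-1.72 ± 0.34) fell as well. The amino acid transporter Slc38a2 fell from 256 to 524 CPM in Acvr1b KO to 93.2 to 142 CPM in double KO (-1.63 ± 0.20, adjusted p = 4.36e-05). Nr4a3, an exercise-induced nuclear receptor, fell by 2.39 ± 0.60 on the log2 scale, was lower by -2.98 without double KO 1, and lost its call without the filter on low counts (0.0592). Hp and Scd1 also fell, and are given below with the adipocyte genes.

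The acetylcholine receptor of the mature neuromuscular junction is built of alpha, beta, delta and epsilon subunits, and its genes carry E-boxes, read by myogenic factors, and in some cases an N-box, read by Ets factors. The promoters are shown because 3 of the 4 subunit genes tested rose. RefSeq promoters were matched for 2 of those 3, and are printed as the 250 bases before the transcription start on the gene's strand (GRCm38.p6, chr11:70619195-70619444, minus strand, and chr2:73580339-73580588, minus strand), with E-boxes (CANNTG) and N-boxes (CCGGAA) found on either strand in capitals.
Chrne: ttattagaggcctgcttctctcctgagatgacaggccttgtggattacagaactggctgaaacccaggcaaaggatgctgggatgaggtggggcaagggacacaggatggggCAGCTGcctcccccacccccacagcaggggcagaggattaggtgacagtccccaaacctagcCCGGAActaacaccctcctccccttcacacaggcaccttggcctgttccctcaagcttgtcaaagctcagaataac
Chrna1: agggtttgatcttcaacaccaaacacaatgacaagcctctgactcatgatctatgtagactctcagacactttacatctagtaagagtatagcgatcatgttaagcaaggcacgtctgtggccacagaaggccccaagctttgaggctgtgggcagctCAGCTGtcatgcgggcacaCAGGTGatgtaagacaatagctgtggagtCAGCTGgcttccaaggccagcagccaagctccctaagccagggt
The window of Chrne held 1 E-box and 1 N-box, at bases 138 to 133 and 76 to 71 before the start. That of Chrna1 held 3 E-boxes, of which 2 read CAGCTG, and no N-box match. Of 32851 promoter windows of the same length, 66.2% held an E-box, 13% one reading CAGCTG and 12% an N-box. E-box and N-box matches did not overlap in these windows.

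Chrne, the adult epsilon subunit, stood at 7.47, 8.46, 7.82 and 8.36 CPM in Acvr1b KO and at 53.1, 50.9, 48.1 and 48.0 CPM in double KO. All 4 double KO libraries lay close together and far above the others, and the difference was 2.64 ± 0.11 (adjusted p = 4.18e-10). Chrna1 stood at 10.7, 11.6, 11.4 and 10.6 CPM against 68.8, 20.7, 19.9 and 17.2 CPM (1.51 ± 0.32, adjusted p = 0.00402). Chrnd, the delta subunit, stood at 1.69 to 2.34 CPM against 8.88, 3.78, 4.02 and 3.50 CPM (1.27 ± 0.26, adjusted p = 0.00323). In both, double KO 1 was far the highest, the other 3 double KO libraries still lay above all Acvr1b KO libraries, and without double KO 1 the difference of Chrna1 was 0.80. Chrnb1, the beta subunit, was at 17.7 to 21.3 CPM against 17.1 to 32.8 CPM and was not called (0.14 ± 0.18, adjusted p = 0.646). The fetal subunit gene Chrng did not pass the filter on low counts.

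Of 20 genes of neuromuscular junction assembly, 7 rose and none fell, against 9.20% and 7.06% of all genes. The median difference was 0.262, against 0.003 over all genes. Nes, which encodes the intermediate filament nestin found beneath the synapse, stood at 34.4, 49.4, 41.7 and 46.6 CPM in Acvr1b KO and at 125, 158, 157 and 167 CPM in double KO (1.82 ± 0.14, adjusted p = 2.61e-07). The groups did not overlap and differed by far more than their spread. The Ets factors Etv4 and Etv5, which act in synaptic gene expression, rose by 1.37 ± 0.20 and 1.05 ± 0.09, and the adhesion molecule Ncam1 by 1.15 ± 0.19. Ache, the acetylcholinesterase that ends transmission, stood at 17.1 to 20.6 CPM in Acvr1b KO and at 17.8, 45.2, 44.5 and 40.8 CPM in double KO (0.96 ± 0.21, adjusted p = 0.00493). For Ache, double KO 1 lay within the Acvr1b KO range.

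**Figure D2:**
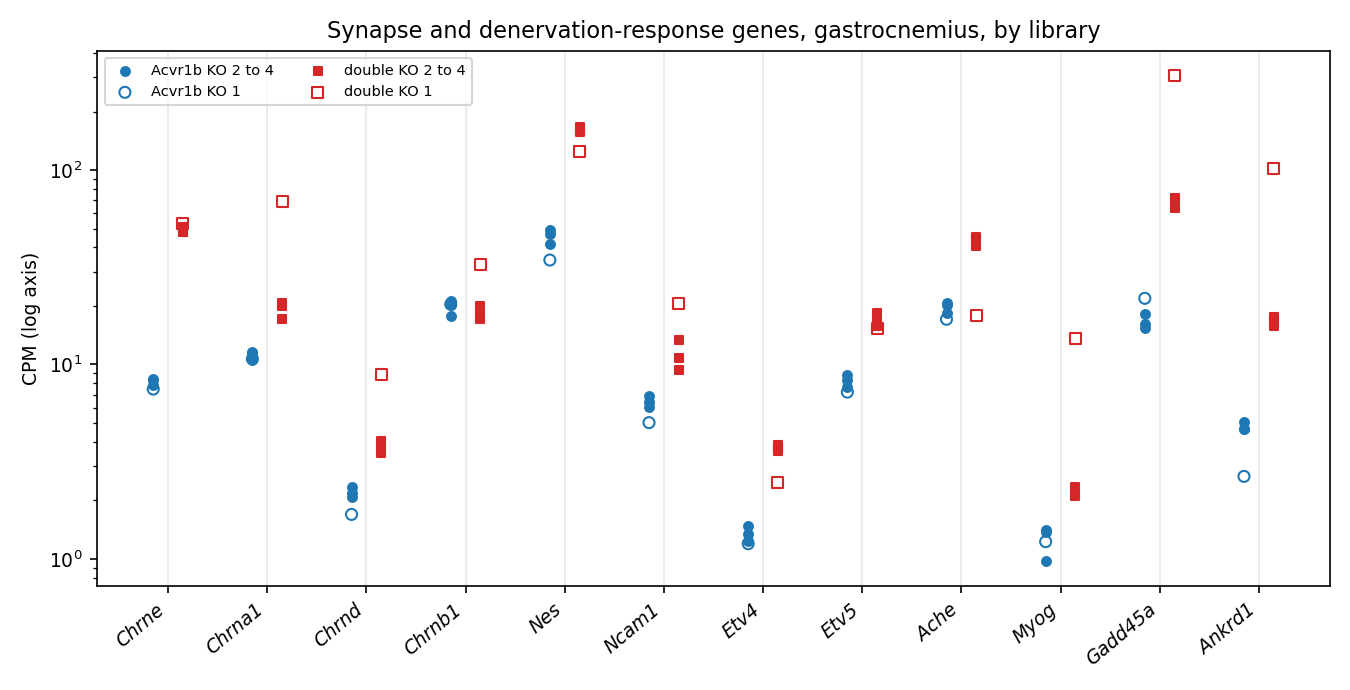
CPM on a log axis of acetylcholine receptor subunits, other synapse genes and denervation-response genes in each gastrocnemius library; circles are Acvr1b KO, squares double KO, and open symbols replicate 1 of each group. The 4 double KO libraries coincide for Chrne between 48.0 and 53.1 CPM, whereas double KO 1 lies above the other double KO libraries for Chrna1, Chrnd, Myog, Gadd45a and Ankrd1 and below them for Ache.

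Of 23 genes known to respond to denervation, 11 rose and 3 fell (median 0.657), against 9.20% and 7.06% of all genes. The count and the median rested in part on double KO 1: without it 9 rose and 5 fell and the median was -0.029, and without double KO 1 and Acvr1b KO 1 together 7 rose and 5 fell. Gadd45a, a stress sensor that rises in denervated fibres, stood at 15.4 to 21.9 CPM in Acvr1b KO and at 308, 69.6, 72.01 and 64.0 CPM in double KO (2.84 ± 0.42, adjusted p = 0.000201), and rose by 1.94 without double KO 1. Ankrd1, a stretch-responsive protein of the sarcomere, stood at 2.66 to 5.04 CPM against 101.6, 17.4, 16.7 and 15.8 CPM (3.15 ± 0.57, adjusted p = 0.00126), and rose by 1.97 without it. Double KO 1 was far the highest library for both genes.

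Myog, which encodes the myogenic factor myogenin, stood at 0.971 to 1.40 CPM in Acvr1b KO and at 13.6, 2.13, 2.11 and 2.33 CPM in double KO (2.00 ± 0.53, adjusted p = 0.0153). Without double KO 1 the difference was 0.82, and the call was lost with the 8 libraries fitted alone (0.0667), with no filter on low counts (0.0653) and without double KO 1 and Acvr1b KO 1 together (0.066). The same mouse stood apart in its soleus, where Gadd45a was at 903 CPM in double KO 1 and at 10.4 to 13.1 CPM in double KO 2 to 4, and Ankrd1 at 633 CPM against 7.26 to 9.87 CPM.

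The myogenic factors Myod1 (1.35 ± 0.26) and Myf6 (1.32 ± 0.21) rose, with Myf6 at 38.9 to 51.5 CPM in Acvr1b KO and at 175, 81.6, 90.9 and 81.9 CPM in double KO. The coactivator Vgll2, which acts in fibre-type control, fell by 0.87 ± 0.17 on the log2 scale. In all, 5 of 21 myogenic regulators rose and 4 fell, against 9.20% and 7.06% of all genes.

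Of 18 slow-fibre genes 11 fell, against 7.06% of all genes, and 1 rose, which is Sln. The median difference was -0.75, and 11 fell also without double KO 1. Myh7, the slow myosin heavy chain, stood at 656, 684, 719 and 670 CPM in Acvr1b KO and at 300, 456, 405 and 401 CPM in double KO (-0.80 ± 0.15, adjusted p = 0.0014). All double KO libraries were below all Acvr1b KO libraries, with double KO 1 the lowest. Mb, which encodes the oxygen store myoglobin, stood at 1790 to 1956 CPM against 1365, 766, 869 and 952 CPM (-0.95 ± 0.15, adjusted p = 0.000348). Atp2a2, the slow calcium pump SERCA2, stood at 444 to 462 CPM against 210 to 264 CPM (-0.89 ± 0.11, adjusted p = 4.64e-05). Tnni1, slow troponin I, fell by 0.89 ± 0.17 and Myh7b by 1.07 ± 0.19 on the log2 scale.

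Fast-fibre genes moved both ways, with 3 of 19 rising and 4 falling (median -0.125), against 9.20% and 7.06% of all genes. Myh2, the myosin of the oxidative fast IIA fibres, stood at 5664 to 5983 CPM in Acvr1b KO and at 3007 to 4380 CPM in double KO (-0.57 ± 0.11, adjusted p = 0.00156). Myh4, the myosin of the IIB fibres and the called gene with the most counts, stood at 63727 to 71421 CPM against 48563 to 55940 CPM (-0.38 ± 0.10, adjusted p = 0.0156). Myh1, the IIX myosin, stood at 4334 to 5709 CPM against 4093 to 6298 CPM and was not called (-0.10 ± 0.15, adjusted p = 0.685). Actn3, the alpha-actinin of fast fibres, stood at 6510 to 7554 CPM against 7508 to 10137 CPM (0.35 ± 0.09, adjusted p = 0.0134), with an overlap through double KO 1, and its call was lost without Acvr1b KO 1 (0.0507). Ryr1, the calcium release channel, fell from 5705 to 6645 CPM in Acvr1b KO to 4284 to 4592 CPM in double KO (-0.49 ± 0.08, adjusted p = 0.000722). Of the embryonic and cardiac sarcomere genes Myh3 (-0.39 ± 0.07) and Myh6 (-0.71 ± 0.12) fell, whereas Actc1 and Ankrd1 rose.

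**Figure D3:**
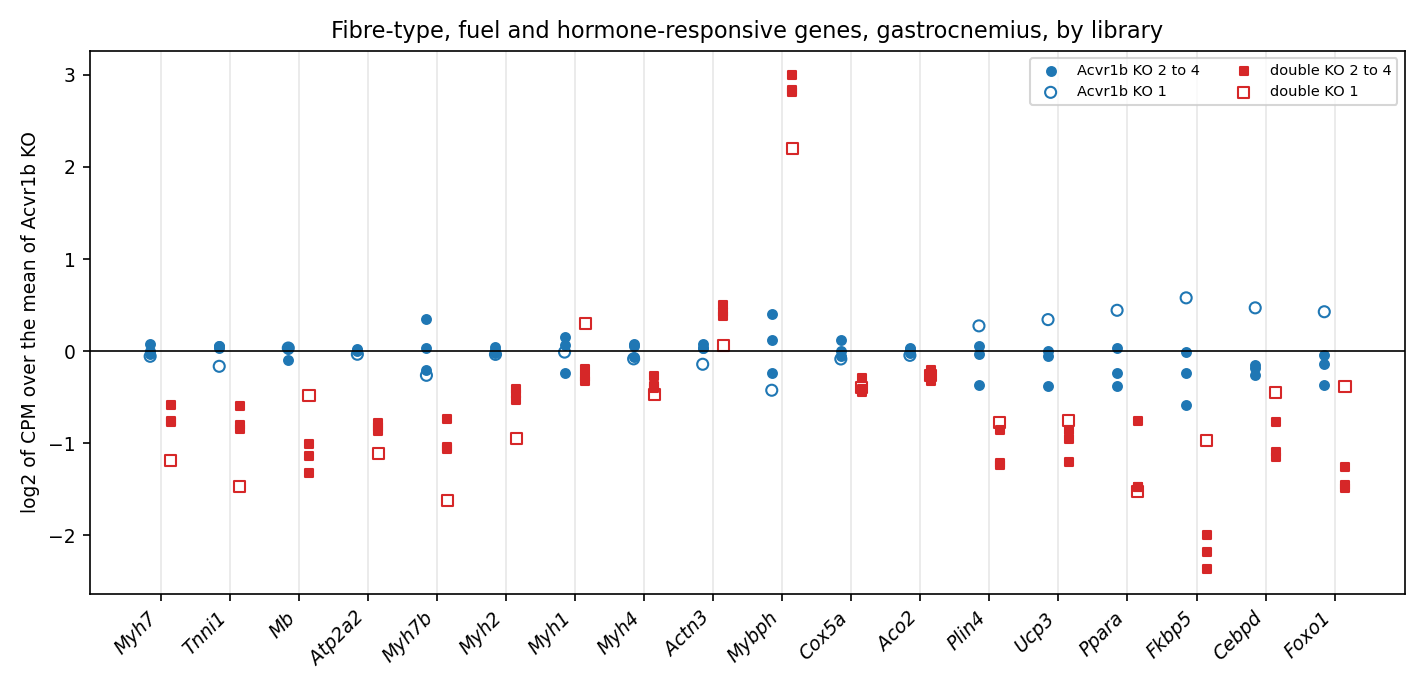
Log2 of each library's CPM over the mean of the 4 Acvr1b KO libraries, for fibre-type, energy and hormone-responsive genes in gastrocnemius; circles are Acvr1b KO, squares double KO, and open symbols replicate 1 of each group. The slow genes Myh7, Tnni1, Mb, Atp2a2 and Myh7b lie below 0 in all 4 double KO libraries, and Mybph lies above 2.

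Of 78 nuclear-encoded subunits of the respiratory chain 18 fell, against 7.06% of all genes, and none rose, with a median of -0.241. For 57 of the 78 the 2 groups did not overlap, against 26.1% of all genes. With 1 library left out, 9 (without Acvr1b KO 4 or double KO 3) to 17 fell. Ndufb11, a subunit of complex I, fell by 0.43 ± 0.11 on the log2 scale. None of the 13 mitochondrially encoded mRNAs was called. mt-Co1 was at 24715 to 32662 CPM against 27689 to 32580 CPM (0.07 ± 0.22, adjusted p = 0.855). Of 32 genes of the TCA cycle and pyruvate oxidation 7 fell and none rose, with Idh3g at -0.37 ± 0.08, and 2 (without double KO 3) to 10 (without double KO 1) fell with 1 library left out.

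Of 39 genes of fatty acid uptake, storage and oxidation 8 fell and none rose, and 5 fell without Acvr1b KO 2, double KO 2 or double KO 3. Plin4, a lipid droplet coat protein, stood at 1422, 1148, 1219 and 912 CPM in Acvr1b KO and at 687, 501, 505 and 649 CPM in double KO (-1.01 ± 0.14, adjusted p = 0.00017). Ucp3, a mitochondrial carrier induced by fasting, fell by 0.93 ± 0.17 and the lipoprotein lipase gene Lpl by 0.53 ± 0.10 on the log2 scale. Among 29 regulators of mitochondrial biogenesis 6 fell and 4 rose. Ppara, the fatty acid receptor that drives lipid oxidation genes, fell from 14.8 to 26.2 CPM in Acvr1b KO to 6.69 to 11.4 CPM in double KO (-1.27 ± 0.24, adjusted p = 0.00177), and the corepressor Nrip1 fell by 1.10 ± 0.17 on the log2 scale. Ppargc1a, the coactivator PGC-1alpha, fell by 0.68 ± 0.18 on the log2 scale, and its call was lost without double KO 1 and Acvr1b KO 1 together (0.0779). Prkaa1, a catalytic subunit of AMP kinase, rose by 0.56 ± 0.15.

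Glycolytic genes changed one by one, with 3 of 42 rising and 9 falling, against 9.20% and 7.06% of all genes. Without double KO 1 and Acvr1b KO 1 together 2 rose and 4 fell. Hk1, the hexokinase that starts glycolysis in most tissues, stood at 7.64, 7.35, 8.73 and 8.14 CPM in Acvr1b KO and at 18.7, 18.8, 18.3 and 18.1 CPM in double KO (1.21 ± 0.09, adjusted p = 1.62e-07). The double KO values lay within 1 CPM of each other and above all Acvr1b KO values. Pfkfb3, which makes the activator of phosphofructokinase, stood at 118 to 250 CPM against 401 to 615 CPM (1.46 ± 0.31, adjusted p = 0.00395). Fbp2, muscle fructose bisphosphatase, fell by 1.41 ± 0.14 and the glycogen-targeting subunit Ppp1r3c by 0.82 ± 0.16 on the log2 scale.

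**Figure D4:**
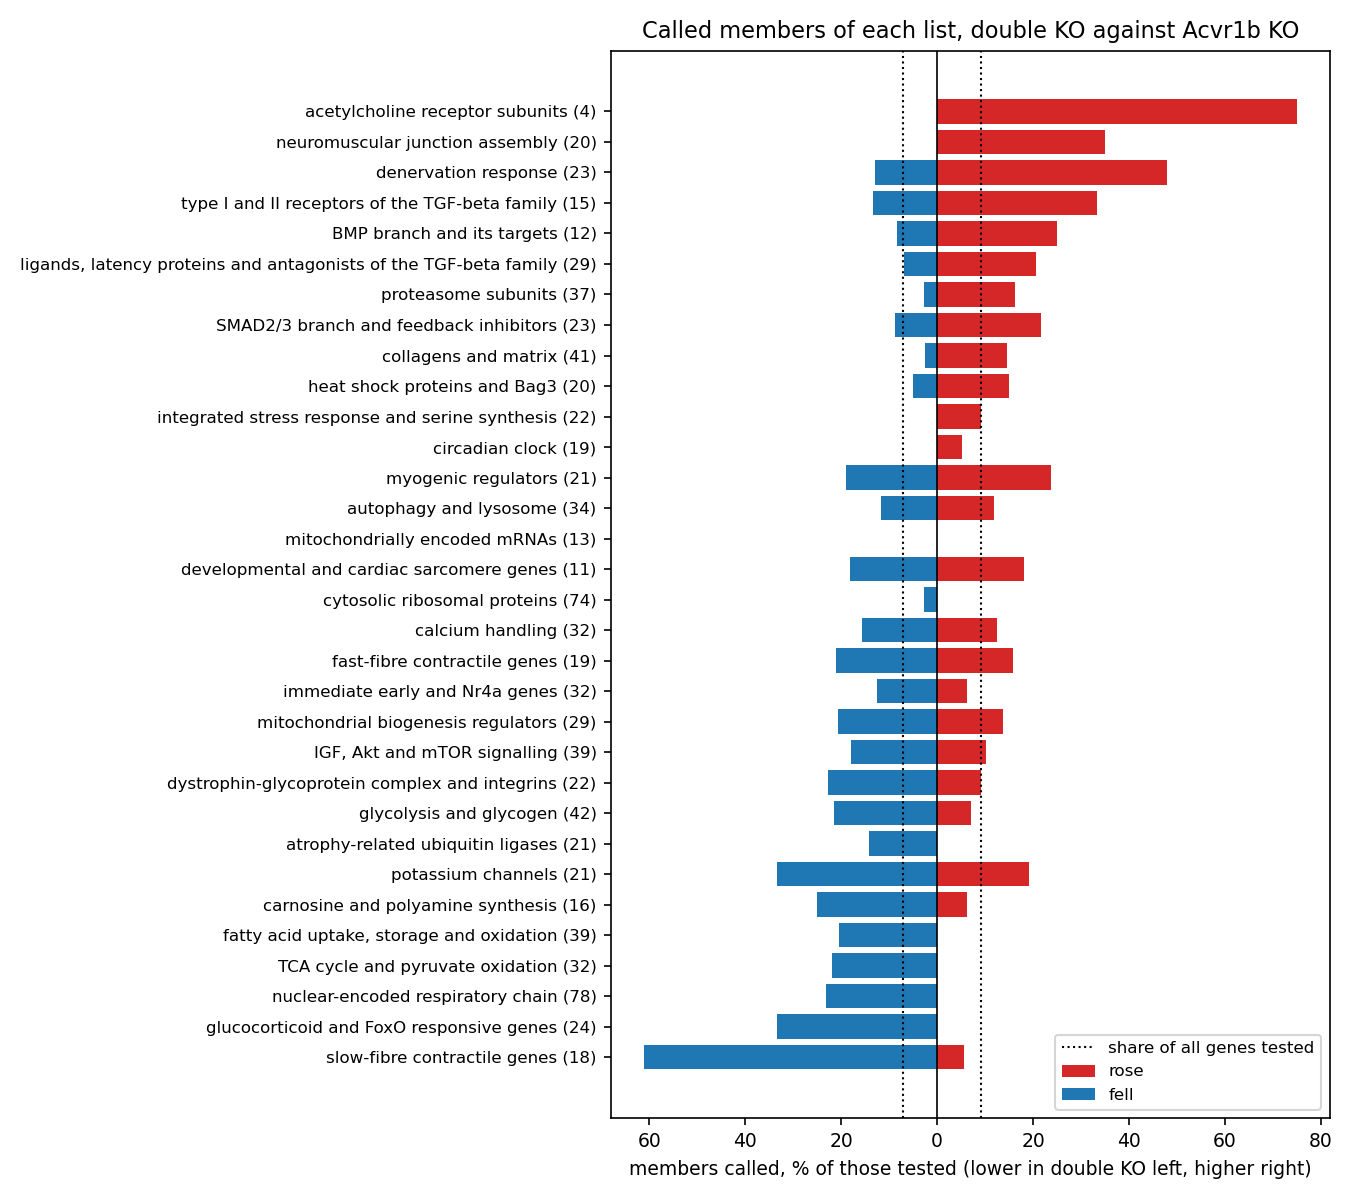
Share of the tested members of each pathway list that were called higher (red, right) or lower (blue, left) in double KO than in Acvr1b KO gastrocnemius, in percent, with the number tested in brackets; dotted lines mark 9.20% higher and 7.06% lower, the shares over all 17536 genes. Risen members make up large shares of the acetylcholine receptor subunits (3 of 4) and the denervation response (11 of 23), and fallen members of the slow-fibre genes (11 of 18). The denervation count rests in part on double KO 1. Some lists share members, as the denervation, slow-fibre and calcium handling lists share Sln, so their bars are not separate results.

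Of 24 glucocorticoid and FoxO responsive genes, 8 fell and none rose (median -0.535), and without double KO 1 the number that fell was 18 and the median -0.851. It was 4 without Acvr1b KO 1, double KO 2 or double KO 3. Fkbp5, a chaperone that the glucocorticoid receptor induces, stood at 306, 173, 204 and 136 CPM in Acvr1b KO and at 105, 39.8, 45.4 and 51.3 CPM in double KO (-1.77 ± 0.28, adjusted p = 0.000339). Foxo1, a transcription factor of the atrophy programme, stood at 205, 138, 148 and 117 CPM against 117, 54.4, 55.7 and 63.7 CPM (-1.07 ± 0.22, adjusted p = 0.00339). In both genes double KO 1 was the highest of its group and lay under the lowest Acvr1b KO library. Of 21 ubiquitin ligases linked to atrophy 3 fell and none rose, among them Asb5 (-0.56 ± 0.10) and Trim54 (-0.32 ± 0.07). Without double KO 1, 5 fell and 2 rose.

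Among genes of IGF, Akt and mTOR signalling 4 of 39 rose and 7 fell, against 9.20% and 7.06% of all genes. The number that fell was 4 without double KO 3 or 4. Igfbp5, a binding protein that muscle secretes, stood at 636 to 673 CPM in Acvr1b KO and at 1711 to 1875 CPM in double KO (1.48 ± 0.20, adjusted p = 9.48e-05). Ddit4l, an inhibitor of mTOR signalling, rose by 1.13 ± 0.25, and Pik3cb, a catalytic subunit of PI3-kinase, fell by 0.70 ± 0.10 on the log2 scale. Of 37 proteasome subunits 6 rose and 1 fell, but without double KO 1 and Acvr1b KO 1 together 1 rose and none fell, and 2 rose without Acvr1b KO 1, 2 or 3. Psmd1, a subunit of the regulatory particle, rose by 0.29 ± 0.07.

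In the list of 20 heat shock genes 3 rose, Hspb8, Hspb1 and Cryab, and 1 fell. Hspb8, which works with Bag3 in the disposal of damaged sarcomere proteins, stood at 312, 339, 308 and 366 CPM in Acvr1b KO and at 1255, 880, 1033 and 897 CPM in double KO (1.62 ± 0.11, adjusted p = 1.07e-07). Cryab was higher by 0.54, and its call was lost under 7 of 17 alternatives. Hspb1 rose by 1.27 ± 0.24, and the cochaperone Dnajb5 fell by 0.50 ± 0.08 on the log2 scale.

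Within the TGF-beta family itself, 6 of 29 ligands, latency proteins and antagonists rose and 2 fell, against 9.20% and 7.06% of all genes. Inhba, which encodes the activin A subunit, stood at 0.7003 to 1.27 CPM in Acvr1b KO and at 1.36, 5.13, 4.32 and 5.13 CPM in double KO (1.97 ± 0.35, adjusted p = 0.000958), with double KO 1 just above the Acvr1b KO range. Gdf11, a ligand closely related to myostatin, stood at 16.9 to 18.6 CPM against 38.6 to 46.5 CPM (1.31 ± 0.12, adjusted p = 3.12e-06). Mstn, myostatin itself, stood at 64.6 to 110 CPM against 80.2 to 94.9 CPM and was not called (0.07 ± 0.16, adjusted p = 0.812). The latency protein Ltbp2 rose by 1.43 ± 0.27.

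Of 15 type I and II receptors and coreceptors tested, 5 rose and 2 fell, but 1 rose without Acvr1b KO 3 or double KO 2. Those that rose were Tgfbr1, the activin receptor gene Acvr2a (0.83), the coreceptor genes Rgma (0.55) and Rgmb (0.24), and Tgfbr2 (0.29), and those that fell were Acvr1b and Hfe2. The calls of Acvr2a and Rgma were lost under 7 and 8 of 17 alternatives, including the loss of any 1 of Acvr1b KO 1, 2 and 3 and double KO 2 and 3, and Rgmb and Tgfbr2, named here only to account for the count, were not followed through the alternatives. The BMP coreceptor gene Hfe2 stood at 521 to 599 CPM in Acvr1b KO and 410 to 485 CPM in double KO (-0.32 ± 0.08, adjusted p = 0.0116). Of 23 genes of the SMAD2/3 branch 5 rose and 2 fell, and 2 rose without Acvr1b KO 3 or double KO 3. Pmepa1, a feedback inhibitor that SMAD3 induces, stood at 19.7, 18.04, 19.6 and 20.6 CPM in Acvr1b KO and at 10.5, 10.2, 9.01 and 7.30 CPM in double KO (-1.08 ± 0.13, adjusted p = 3.86e-05). Tgfbi, a matrix protein named for its induction by TGF-beta, moved the other way, from 15.4 to 17.8 CPM to 24.6 to 25.9 CPM (0.62 ± 0.12, adjusted p = 0.00171). Smad9, a SMAD of the BMP branch, rose by 2.02 ± 0.39 from 0.162 to 0.496 CPM to 0.616 to 1.32 CPM, and by 2.60 without double KO 1 and Acvr1b KO 1 together. Of the 12 genes of the BMP branch 3 rose and 1 fell, and without those 2 libraries 1 rose and none fell.

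In the dystrophin complex and its partners 5 of 22 genes fell and 2 rose, against 7.06% and 9.20% of all genes. Sntb1, a syntrophin, fell by 1.71 ± 0.23 and Dtnb, a dystrobrevin, by 0.79 ± 0.20 on the log2 scale. Nos1, the nitric oxide synthase held by that complex, stood at 148 to 183 CPM in Acvr1b KO and at 112, 55.5, 67.4 and 75.5 CPM in double KO (-1.07 ± 0.16, adjusted p = 0.000246). Tln1, which links integrins to actin, rose by 0.54 ± 0.09. In polyamine and carnosine synthesis 4 of 16 genes fell, including Gadl1 and the S-adenosylmethionine decarboxylases Amd1 (-0.63 ± 0.11) and Amd2 (-0.62 ± 0.12), and 1 rose, the spermine synthase Sms (0.57 ± 0.10).

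Markers of some other cells in the muscle moved with genotype, and those of others held few or no called members. The shares over all genes were 9.20% higher and 7.06% lower. Whole muscle cannot show whether a type had fewer cells or less RNA per cell. Of 11 adipocyte markers tested 7 fell and 1 rose (median -1.74), the latter being Cidea, by 2.08. Their summed level was 1006 to 1312 CPM in Acvr1b KO and 767.5 to 2585 CPM in double KO, highest in double KO 2. Without the abundant Car3 the sum was 119 to 165 CPM in Acvr1b KO and 73.8 to 120 CPM in double KO. Adipoq stood at 7.41, 3.43, 3.71 and 2.97 CPM in Acvr1b KO and at 2.25, 0.270, 1.02 and 1.17 CPM in double KO (-1.91 ± 0.48, adjusted p = 0.0118). Hp stood at 19.4, 4.46, 4.72 and 3.10 CPM against 2.44, 0.324, 1.42 and 0.840 CPM (-2.68 ± 0.56, adjusted p = 0.00361), and at -1.73 without Acvr1b KO 1. Scd1 stood at 225, 80.1, 86.3 and 88.2 CPM against 63.7, 22.5, 33.1 and 33.6 CPM (-1.65 ± 0.43, adjusted p = 0.0149), and its call was lost without Acvr1b KO 1 (0.0683) or the filter on low counts (0.069). Acvr1b KO 1 was the highest and double KO 1 the highest of its group in these genes. Their part in the falls of the lipid and glucocorticoid-responsive genes was not tested.

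Of 11 Schwann cell and nerve markers 4 fell and none rose (median -0.864; 1 fell without Acvr1b KO 2 and 2 without double KO 3), and their summed level was 48.4 to 121 CPM in Acvr1b KO and 38.003 to 44.1 CPM in double KO. The highest value was that of Acvr1b KO 2. Nefl did not pass the filter on low counts. The part of nerve in the synaptic results was not tested.

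Of 12 endothelial markers 3 fell and none rose, with sums of 385 to 425 CPM against 325 to 340 CPM. Pecam1, which joins endothelial cells, stood at 50.1 to 52.8 CPM in Acvr1b KO and at 38.6 to 44.0 CPM in double KO (-0.33 ± 0.07, adjusted p = 0.00347). Of 10 pericyte and smooth muscle markers 5 fell (3 without Acvr1b KO 1, 2 or 3) and 1 rose, the latter being Des, which myofibres also express. Tagln fell by 0.79 ± 0.14 and the smooth muscle myosin Myh11 by 0.70 ± 0.14 on the log2 scale. Of 12 fibroblast markers 3 rose (6 without double KO 1), with sums of 690 to 757 CPM against 790 to 879 CPM. Pdgfra, the receptor that defines fibro-adipogenic cells, stood at 16.6 to 17.2 CPM against 24.04 to 29.4 CPM (0.62 ± 0.13, adjusted p = 0.004). In the matrix list, which shares Lum with these markers, 6 of 41 genes rose and 1 fell, against 9.20% and 7.06% of all genes. The differences were 1.26 ± 0.20 for Lum, 0.99 ± 0.12 for Bgn and 1.15 ± 0.21 for Col8a1.

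Of 11 macrophage markers 3 rose (sums of 57.6 to 78.5 CPM against 65.3 to 107 CPM, the highest in double KO 1), and none was called without double KO 1 or 4 or Acvr1b KO 2 or 3. Of the myofibre markers, which check the tissue, Tcap fell by 0.48 ± 0.09 on the log2 scale, Des rose by 0.30 ± 0.07, and the summed level of all 10 was 67367 to 76158 CPM in Acvr1b KO and 63449 to 77312 CPM in double KO. The immunoglobulin heavy chain Ighm rose from 90.7 to 135 CPM to 154, 309, 359 and 272 CPM (1.26 ± 0.22, adjusted p = 0.000937). Of the 12 T and B cell markers 10 were below the filter.

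Calls were counted around the targeted loci, with no test. Within 20 Mb of Tgfbr1 61 of 249 genes tested were called (24.5%), within 20 Mb of Acvr1b 49 of 277 (17.7%), and elsewhere on the assembled chromosomes 2737 of 16992 (16.1%). Sequence carried along with a targeted allele was not examined here. Among the genes named above, Shisal1, Slc38a2, Nr4a3, Ppara, Tln1 and Dnajb5 lie within those windows, and Sln, Chrne, Slc2a3, Gadl1 and Hk1 lie outside them.

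Whether the change differed with and without the loss of Acvr1b was asked by the difference of 2 differences. It set double KO minus Acvr1b KO against Tgfbr1 KO minus control, and the 2 sides share no library. Only the double KO mice have the higher animal numbers, so a cohort difference would enter this contrast in full. Genotype and cohort cannot be told apart here either. The difference of the 2 was called for 376 genes (2.14%), 259 upward and 117 downward, and 370 of them were among the 2852 genes called above. Without library control 1 it was called for 548 genes. Double KO minus Acvr1b KO is itself a part of this contrast, so the overlap is not separate evidence. Tgfbr1 KO differed from control in 30 genes (0.171%, with 1052 at an unadjusted p under 0.05). Sln stood at 0.951 CPM on average in control and 0.961 CPM in Tgfbr1 KO, against 0.842 CPM in Acvr1b KO and 19.8 CPM in double KO, and the difference of differences was 4.48 ± 0.58 (adjusted p = 0.000468). Chrne stood at 8.31, 8.21, 8.03 and 50.05 CPM in the same order (2.66 ± 0.15, adjusted p = 7.81e-08). The means of the other 3 genotypes lay close together for both genes.

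Other genes called in that test, under every alternative run, were Shisal1 (3.92 ± 0.36), Srrm4os (3.53 ± 0.35), Katnal2 (3.19 ± 0.32), Gstt3 (3.03 ± 0.37), Nes (1.73 ± 0.19), Hspb8 (1.42 ± 0.15), Gdf11 (1.41 ± 0.18) and Hk1 (1.23 ± 0.12) on the rising side. On the falling side they were Slc30a2 (-1.96 ± 0.30), Slc2a3 (-1.93 ± 0.21), Gadl1 (-1.79 ± 0.16), Slc38a2 (-1.74 ± 0.28) and Fbp2 (-1.20 ± 0.19). Pfkfb3 had different signs on the 2 sides: its mean was 268 CPM in control and 140 CPM in Tgfbr1 KO, but 181 CPM in Acvr1b KO and 498 CPM in double KO (2.40 ± 0.44, adjusted p = 0.00803). Myh7 (-0.53 ± 0.21, adjusted p = 0.238), Mb (-0.65 ± 0.21, adjusted p = 0.129) and Fkbp5 (-1.18 ± 0.38, adjusted p = 0.127) were not called there, and a p above the threshold does not show that the 2 differences were alike.

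**Figure D5:**
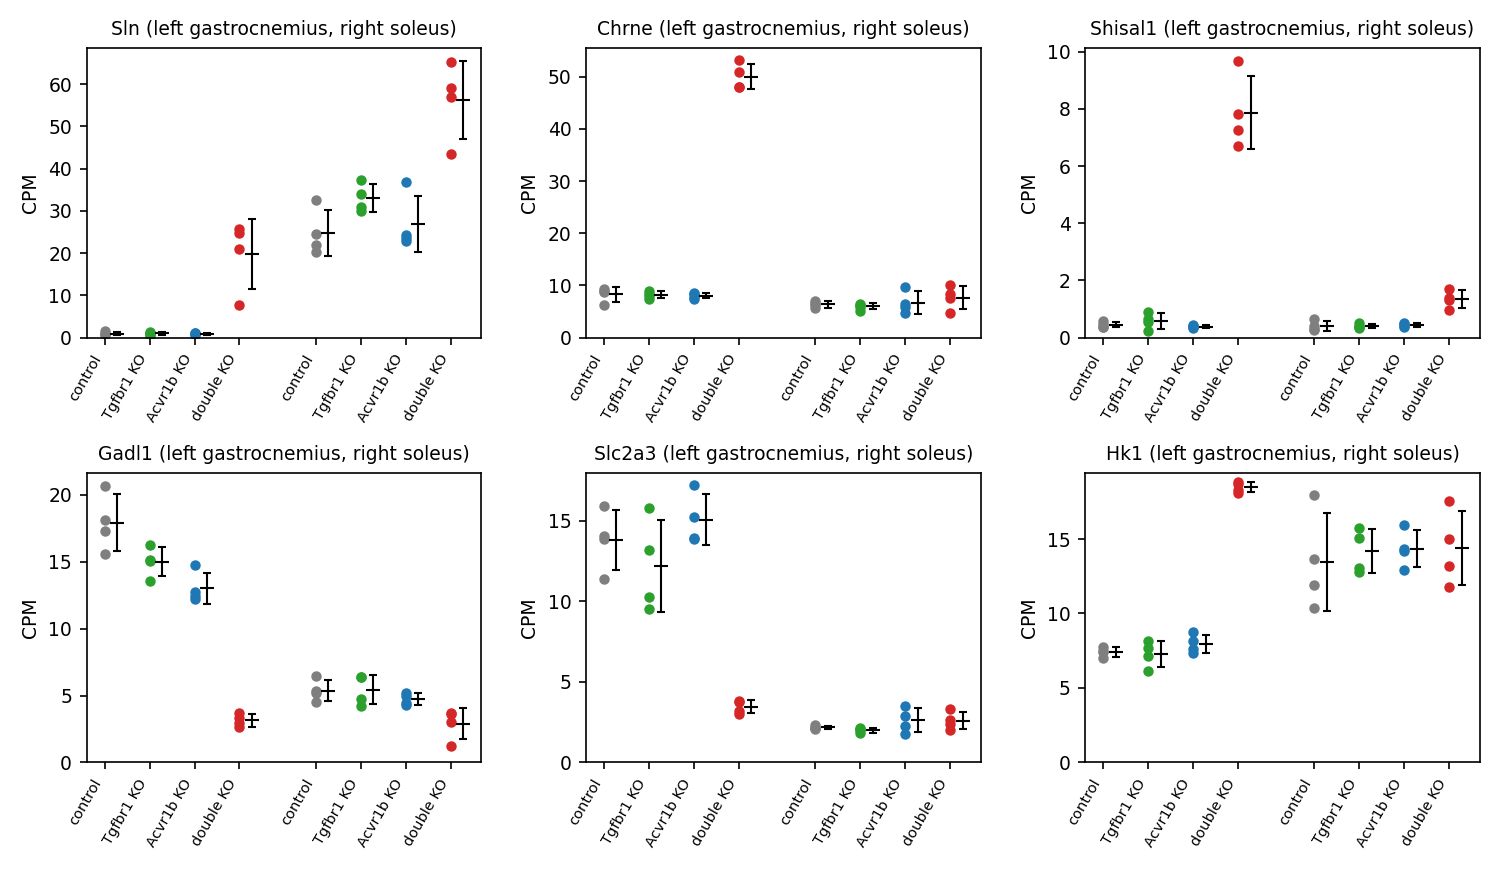
CPM of 6 genes in every library, gastrocnemius on the left of each panel and soleus on the right, in the order control, Tgfbr1 KO, Acvr1b KO and double KO; coloured points are mice, and black marks are the mean with its SD (n = 4). In gastrocnemius the double KO libraries stand apart from the other 3 genotypes for each gene, whereas in soleus Chrne, Slc2a3 and Hk1 lie at like levels in the 4 genotypes.

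The soleus of the same 8 mice showed far fewer called genes, 23 of 18143 (0.127%), of which 7 were higher and 16 lower in double KO, with 2030 genes at an unadjusted p under 0.05. Of the 23, 22 were also called in gastrocnemius. The fitted spread between mice of a genotype was larger in soleus than in gastrocnemius. A difference of the same size is therefore less readily called in soleus, and the numbers of called genes do not by themselves compare the response of the 2 muscles. The 1614 genes that rose in gastrocnemius had a median difference of 0.27 in soleus and the 1238 that fell one of -0.231, over the 1543 and 1214 of them tested there. Over all genes tested in soleus the median was 0.007. Deviations of the 2 muscles of a double KO mouse correlated at 0.413 to 0.692, so these medians are not independent of the gastrocnemius calls. Ak4, a mitochondrial adenylate kinase, stood at 2.69, 3.57, 3.35 and 2.48 CPM in Acvr1b KO soleus and at 5.66, 6.04, 7.56 and 7.75 CPM in double KO soleus (1.16 ± 0.15, adjusted p = 0.00487). Tinagl1, a basement membrane protein, stood at 74.6, 38.8, 41.6 and 36.5 CPM against 14.5, 17.2, 18.2 and 17.96 CPM (-1.50 ± 0.23, adjusted p = 0.0143). Neither gene overlapped between the groups. Ak4 was called under all 12 alternatives run in soleus, and the call of Tinagl1 was lost without double KO 3 (adjusted p = 0.0558).

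The difference between the muscles was tested over all 32 libraries and called for 110 of 18726 genes (0.587%), 38 more positive and 72 more negative in soleus. With the mouse as a block, which uses that both muscles came from the same animals, 249 genes were called. Chrne stood at 9.75, 6.45, 5.81 and 4.65 CPM in Acvr1b KO soleus and at 4.61, 7.57, 8.40 and 10.02 CPM in double KO soleus, a difference of 0.20 ± 0.22 that was not called (adjusted p = 0.774). The rise of Chrne in gastrocnemius was larger by 2.43 ± 0.25 (adjusted p = 2e-06, written as -2.43 for soleus minus gastrocnemius). Hk1 (-1.20 ± 0.18, adjusted p = 0.000564), Slc2a3 (2.11 ± 0.25, adjusted p = 1.5e-05) and the transcription factor gene Hivep2 (1.33 ± 0.17, adjusted p = 3.78e-05) also differed between the muscles. Sln stood at 22.96 to 36.8 CPM in Acvr1b KO soleus and at 43.6 to 65.3 CPM in double KO soleus, a rise of 1.06 ± 0.18 (adjusted p = 0.0254) that was smaller than in gastrocnemius (-3.48 ± 0.42, adjusted p = 1.84e-05) and lost its call in soleus under 5 of 12 alternatives (adjusted p up to 0.0799).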

How the data were processed

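Whole-muscle polyA RNA was sequenced from 32 libraries of 16 mice, and 8 gastrocnemius libraries form the comparison. Per the file header and the submitters' processing notes, the authors trimmed reads with cutadapt, aligned them to GRCm38.p6 with HISAT2 and counted them per gene with featureCounts 2.0.1, with strand setting 2. Reads that align to several places were shared as fractions, so the deposited values are estimated counts, which were rounded here to whole numbers. FastQC 0.11.9 and DESeq2 are also named in those notes. A lost exon or genes with near-identical copies are therefore measured poorly.

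Counts of the 16 gastrocnemius libraries were fitted together with edgeR 4.0.16 (R 4.3.3), with a mean per genotype, TMM scaling, filterByExpr and the robust quasi-likelihood test, 2-sided, with Benjamini-Hochberg adjustment over the 17536 genes tested. SE is the log2 fold change over the root of F. The soleus was fitted alike over 18143 genes, and the difference between muscles over all 32 libraries. Of 55487 genes, 55227 matched GENCODE M21 for symbols and positions. Ranges of total counts in the 2 compared groups are given with the results. In the other gastrocnemius libraries totals ran from 29387756 to 54435854 in control and from 16535118 to 54456450 in Tgfbr1 KO. Soleus totals ran from 32413294 to 41950968. Promoter windows are from RefSeq.

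Named genes were the targeted receptors, Mstn, Inhba and 4 myosins; up to 14 rising and 14 falling called genes with at least 5 CPM and no overlap; the 5 called genes with the most counts; up to 6 and 6 called genes of soleus and of each difference of contrasts; and up to 5 called members of each of 44 gene lists, or the 2 with the highest level where none was called, with all acetylcholine receptor subunits. Predicted and clone-named genes, antigen receptor segments, pseudogenes and genes on X and Y were left out of these choices. A few genes the rule named are not reported here. The members and lists were chosen with earlier results of these data known. Examples within a list favour genes called under every alternative, and Rgmb and Tgfbr2 were named only to account for a count. Apart from these, no gene given as risen or fallen was picked by another rule.

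Alternatives were DESeq2 1.42.0, RLE scaling, no filter on low counts, the replicate block, the 8 libraries alone, leaving out genes with fractional counts, mitochondrially encoded genes or genes within 20 Mb of the targeted genes, and leaving out each library in turn. Both muscles of a mouse share its animal number. Deviations of the 2 muscles of a mouse correlated at 0.413 to 0.692 in double KO and at 0.0318 to 0.178 in Acvr1b KO. The test was tried on simulated data first.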

Additional observations from a re-analysis of the deposited data

Results flagged for a closer look

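In 42 of 384 groups of 4 libraries, 1 group for each named gene and genotype, a single library stood apart by Dixon's criterion: its gap to the nearest library, divided by the range of the group, was above the 95% critical value for 4 libraries. Chance gives about 1 group in 20 for independent groups of normally spread values. The groups here come from the same 8 libraries, so their number is not to be weighed against that rate. Double KO 1 was the library in 28 of the 42. It was the highest of its group, with the gap over the range in brackets, for Ankrd1 (0.981), Chrna1 (0.932), Chrna9 (0.943), Chrnd (0.904), Ctsl (0.968), Foxo1 (0.851), Gadd45a (0.967), Hba-a1 (0.937), Hbb-bs (0.903), Kcna1 (0.857), Kcnn3 (0.868), Krt18 (0.869), Myf6 (0.9), Myh1 (0.831), Myog (0.981), Nr4a3 (0.914), Plekhh1 (0.844), Psmb1 (0.951), Psmc1 (0.934) and Stab2 (0.84). It was the lowest for Ache (0.84), Inha (0.844), Mylk2 (0.837), Rgma (0.887), Ryr1 (0.936), Smad9 (0.967), Tdrd7 (0.872) and Trp53bp1 (0.929). The cause was not tested.

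Acvr1b KO 1 stood apart in 7 groups. It was the highest for Adipoq (0.832), Cebpd (0.885), Cyp2e1 (0.911), Hp (0.901), Lcn2 (0.85) and Scd1 (0.944), and the lowest for Tnni1 (0.874). Acvr1b KO 2 stood apart in 4, as the highest for Kcna1 (0.83) and Kcnk5 (0.922) and the lowest for Hivep2 (0.922) and Mb (0.886). Double KO 4 was the highest for Ppara (0.941) and the lowest for Prkaa1 (0.857), and Acvr1b KO 4 the highest for Fam174b (0.848).

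For 48 named genes the change from Acvr1b KO to double KO differed from the change from control to Tgfbr1 KO (edgeR's quasi-likelihood test, Benjamini-Hochberg adjusted p under 0.05). The difference of log2 changes was positive for Sln (4.48), Shisal1 (3.92), Srrm4os (3.53), Fam174b (3.20), Kcnn3 (3.07), Ankrd1 (3.21), Actc1 (1.95), Gstt3 (3.03), Katnal2 (3.19), Uchl1 (2.88), Gadd45a (2.89), Tnfsf10 (2.66), Mybph (2.08), Pak1 (1.12), Chrne (2.66), Gdf11 (1.41), Nes (1.73), Ncam1 (1.28), Etv5 (0.88), Pfkfb3 (2.40), Hk1 (1.23), Igfbp5 (1.37), Ctss (1.13), Atg12 (0.49), Mthfd2 (1.26), Lum (1.18), Bgn (0.81), Myf6 (1.19), Hspb8 (1.42) and Ighm (1.69). It was negative for Odf3l2 (-1.98), Slc30a2 (-1.96), Slc2a3 (-1.93), Gadl1 (-1.79), Ryr1 (-0.47), Slc38a2 (-1.74), Fbp2 (-1.20), Hivep2 (-0.76), Pmepa1 (-0.85), Atp2a2 (-0.68), Optn (-0.50), Amd1 (-0.69), Amd2 (-0.73), Sntb1 (-1.37), Nos1 (-0.91), Mmp9 (-1.31), Flt1 (-0.45) and Pecam1 (-0.51).

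For 15 named genes the change from Acvr1b KO to double KO differed between soleus and gastrocnemius by the same kind of test. Soleus minus gastrocnemius, on the log2 scale, was negative for Sln (-3.48), Shisal1 (-2.72), Srrm4os (-3.52), Fam174b (-4.08), Gstt3 (-2.07), Uchl1 (-2.55), Chrne (-2.43), Etv5 (-0.82) and Hk1 (-1.20). It was positive for Slc30a2 (1.71), Slc2a3 (2.11), Gadl1 (1.34), Stab2 (1.63), Taf4b (1.43) and Hivep2 (1.33).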

How the results depend on the processing

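The 2852 genes called between double KO and Acvr1b KO gastrocnemius were 3193 with DESeq2, 3616 with the 8 libraries alone, 2420 with no filter on low counts, 2154 without genes that share reads and 2050 to 2942 with 1 library left out. Without double KO 1 and Acvr1b KO 1 together, a setting chosen after the data were seen, 2268 were called, of which 1943 were among the 2852. Of the 183 named genes called, 119 were called under every alternative run that tested them and 64 lost the call under at least 1. The replicate block, by the number in the labels, gave 2929 genes. The samples share only a number: deviations of same-numbered gastrocnemius libraries correlated at 0.0337 to 0.185, and number 1 correlated best with its own number while the other 3 did not. The 376 genes of the difference between Tgfbr1 loss with and without Acvr1b loss were 734 with DESeq2 and 232 to 548 with 1 library left out. The 23 genes called in soleus were 152 with DESeq2, 15 with the replicate block and 8 to 23 with 1 library left out. The 110 genes that differed between muscles were 216 with DESeq2, 249 with the mouse as replicate block, and 73 to 236 with 1 library left out. For these moved counts the cause was not tested. With 4 mice a group, genes near the filter on low counts give the least precise fold changes.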

Other observations

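The remaining gene lists are given by their counts in gastrocnemius, double KO against Acvr1b KO, beside 9.20% of all genes higher and 7.06% lower. Of 21 potassium channel genes 4 rose and 7 fell (median -0.245), and 2 fell without Acvr1b KO 2 or 3. Of 32 calcium handling genes 4 rose and 5 fell, among them the calcium pump regulator Mrln. Of 34 genes of autophagy and the lysosome 4 rose and 4 fell, with the lysosomal protease Ctss, the autophagy receptor Optn and the conjugation factor Atg12 among them. Of 22 genes of the integrated stress response and serine synthesis 2 rose, which are the mitochondrial folate enzyme Mthfd2 and the asparaginyl tRNA synthetase Nars. Of 19 clock genes 1 rose, and of 32 immediate early genes 2 rose and 4 fell.

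Of 74 cytosolic ribosomal protein genes 2 fell and none rose (median -0.146), and 9 fell without double KO 1. Of 12 satellite cell markers 1 rose and 1 fell, of 10 tendon markers 1 fell, and of 7 neutrophil markers tested 1 fell, the protease Mmp9. None of the 6 erythrocyte markers tested was called (median -0.45).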
